A study of Mus musculus with 24 samples.

Results

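The keratin genes of the mouse were followed in neural retinas and eye cups of PRDM13-OE mice and their wildtype littermates. A gene was included when the deposited table gave it as protein coding and its symbol was Krt followed by digits alone, a rule that used no measured value. It selected 49 of 56748 genes, 25 on chromosome 11 and 24 on chromosome 15. The symbols Krt6a, Krt6b, Krt33a and Krt33b end in a letter and fell outside it.

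PRDM13-OE mice carried 1 copy of a human PRDM13 cassette at Rosa26, in which the ubiquitous EF-1α promoter drives the dox-responsive transactivator and a TRE3G promoter drives PRDM13, and the study describes some expression without dox. Both genotypes were on a C57BL/6J background. Mice of each genotype were left untreated, or were given dox for 72 hours at 2 mg/mL, together with 10% sucrose in the drinking water, as adults. There were 3 mice in each of the 4 combinations, each giving 1 neural retina library and 1 eye cup library (RPE, choroid and sclera), so that 24 libraries fell into 8 groups of 3. Human PRDM13 itself was not analysed here.

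Keratins are the intermediate filament proteins of epithelia, and a filament forms from pairs of 1 acidic (type I) and 1 basic (type II) chain. In the mouse genome most type I genes lie in one cluster and the type II genes, with the type I gene Krt18, in another. Basal cells of stratified epithelia make Krt5 with Krt14 and Krt15, the corneal epithelium makes Krt12, the suprabasal conjunctiva makes Krt4 with Krt13, and simple epithelia, including the RPE, make Krt8 with Krt18. Cornea and conjunctiva adjoin the sclera at the limbus, and neither is among the tissues that the eye cup is stated to hold.

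The 100 bases before the GENCODE vM39 canonical start are shown for Krt12, Krt15, Krt5 and Krt18. They were chosen among the leading keratin genes of the eye cups because they differed in how they varied between eye cups. Sequences are from GRCm39, written 5′ to 3′ on the strand of the gene, with matches on either strand in capitals. The TATA box was searched as TATAAA, and for the GC box the letters were GGGCGG.
Krt12, chr11:99313087-99313186, minus strand: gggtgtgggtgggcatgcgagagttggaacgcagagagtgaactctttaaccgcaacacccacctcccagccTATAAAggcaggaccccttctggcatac
Krt15, chr11:100026755-100026854, minus strand: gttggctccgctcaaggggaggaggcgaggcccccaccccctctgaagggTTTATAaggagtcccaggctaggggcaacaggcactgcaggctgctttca
Krt5, chr15:101621347-101621446, minus strand: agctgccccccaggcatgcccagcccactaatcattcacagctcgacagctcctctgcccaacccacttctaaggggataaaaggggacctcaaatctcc
Krt18, chr15:101936515-101936614, plus strand: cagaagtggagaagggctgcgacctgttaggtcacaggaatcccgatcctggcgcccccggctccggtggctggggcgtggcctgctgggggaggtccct
The TATAAA match of Krt12 began at position -28 from the start of transcription and that of Krt15, on the opposite strand, at position -50. Neither Krt5 nor Krt18 held a match to either motif in this window. Krt13, Krt4 and Krt14, also among the leading keratins but not shown, held no match either. Over all keratin genes, 20 of 49 (40.8%) held TATAAA, against 5.55% of 21770 genes with a window of the same length. Of the 18 keratins with 10 or more counts in each eye cup, only Krt12, Krt15, Krt16 and Krt10 held it. GGGCGG was held by 5 of 49 (10.2%), against 28.9% of all windows. These matches are letters in a window and say nothing of the factors that bind there.

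Libraries held between 15825059 and 24908314 counts. Keratin genes took 0.255% to 3.58% of the counts of an eye cup, with a median of 1.55%, and 0.00772% to 0.0131% of those of a retina, with a median of 0.00942%. Of 49 keratins, 18 reached 10 counts in each eye cup and 13 reached 100, whereas 5 reached 10 counts in each retina and 2 reached 100. No count at all was found for 6 keratins in the eye cups and for 14 in the retinas. All 14 RPE marker genes were higher and all 14 rod genes lower in eye cups than in retinas by the test described below, but rod genes still summed to between 3476 and 55754 CPM in eye cups. CPM are counts relative to library size, scaled by TMM factors over the 24 libraries. The 7 genes of the conjunctival and goblet cell list summed to 29.6 to 922 CPM in eye cups and 1.08 to 4.13 CPM in retinas. Most of this was the mucin Muc4 (453 to 16309 counts in eye cups, 0 to 44 in retinas), while Muc5ac had at most 8 counts and Muc16, Tff1 and Tff3 had 0 in each eye cup.

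The keratin genes were first ordered by level. Levels of different genes were compared on the deposited FPKM, which divide by gene length. Over the 12 eye cups the highest mean FPKM was that of Krt15, a basal keratin that is also strong at the limbus (gene at chr11:100022584-100026754, minus strand, GRCm39), at 2409 ± 1494 (SD, n = 12). Krt5, the type II partner of basal cells (chr15:101615505-101621333, minus strand), had 2286 ± 1691. They were followed by the mucosal pair, with Krt13 at 925 ± 579 and Krt4 at 576 ± 406. Corneal Krt12 (chr11:99306492-99313085, minus strand) had 538 ± 785, basal Krt14 had 474 ± 466 and simple epithelial Krt18 (chr15:101936615-101940462, plus strand) had 466 ± 277. Krt19, found in simple epithelia and conjunctiva, had 258 ± 160, Krt8 (chr15:101905133-101912917, minus strand) had 173 ± 80.2, and Krt17, a keratin of basal and appendage cells that wounding induces, had 144 ± 174. Within the order, Krt15 and Krt5, and Krt4, Krt12, Krt14 and Krt18, lay closer together than the spread of each over eye cups.

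The order was not the same in each eye cup. Krt15 or Krt5 had the highest FPKM in 10 eye cups. In untreated PRDM13-OE eye cups 2 and 3 it was Krt18, at 503 and 1075 FPKM, over 260 and 309 FPKM for Krt15. Krt12 followed Krt5 and Krt15 in eye cup 1 of each PRDM13-OE group, with 2470 and 1775 FPKM, and had 1.54 FPKM in untreated PRDM13-OE eye cup 3.

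Over the 12 retinas only Krt18 had more than 10 FPKM, with a mean of 40.8 ± 8.96 (SD, n = 12). Krt222, a keratin-like gene of little-known function, had 4.20 ± 0.296. Krt10 and Krt1, the pair of the suprabasal epidermis, had 2.48 ± 0.388 and 1.04 ± 0.174, and Krt8 had 0.880 ± 0.365. The other keratins had means below 0.880 FPKM.

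**Figure D1:**
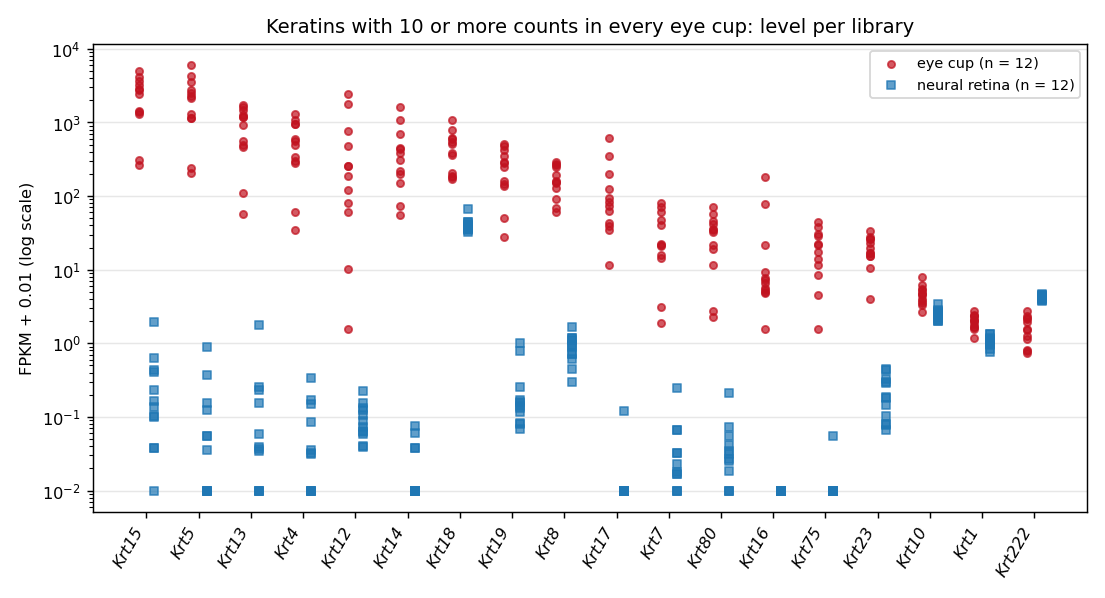
FPKM plus 0.01 (log scale) in each of 12 eye cups (circles) and 12 neural retinas (squares) for the 18 keratins with 10 or more counts in each eye cup, ordered by mean eye cup FPKM. The tissues did not overlap for Krt15 to Krt23 or for Krt222, which alone was higher in retinas.

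Eye cups were then compared with retinas across all groups. Of 38 keratins tested, 26 were higher and 3 lower in eye cups (edgeR quasi-likelihood test, adjusted p-value below 0.05 and log2-fold change past 1), where 42.7% of all 26034 genes tested were called, 24.2% higher and 18.4% lower. This test treated the 24 libraries as independent, although both tissues came from the same 12 mice, and with each mouse as a block 24 keratins were higher and 3 lower, beside 23.4% and 17.5% of all genes. For 16 of the 38 keratins each eye cup lay above each retina, while 15.5% of all genes tested did so, and for 1 each eye cup lay below each retina (13.5% of all genes). Of the 26 and 3 called, 6 and 1 had counts so low that a floor of 3 counts in the lower tissue leaves no fold past 1 (Krt87, Krt36, Krt79, Krt35, Krt27, Krt34 and Krt26), and keratins undetected in one tissue passed the filter through the other alone. The median log2-fold change of the keratins tested was 3.87, or 2.27 with 17 keratins that were undetected in one tissue held at their bound, and that of all genes was -0.01.

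Basal and mucosal keratins were near zero in retinas. Krt5 had between 6845 and 254817 counts in eye cups (median 92471.5) and between 0 and 39 in retinas (median 1.5). The log2-fold change was 14.51 (SE 0.89, adjusted p = 1.9e-11), and it ranged from 13.79 without untreated PRDM13-OE eye cup 1 to 16.20 without wildtype retina 2 with dox. Krt15 had 6891 to 143795 counts in eye cups (median 96793.5) and 0 to 69 in retinas (median 5), and its log2-fold change was 12.91 (SE 0.76), or 12.35 and 13.67 without the same eye cup and retina. For Krt13 the log2-fold change was 12.84 (SE 0.85), or 12.12 and 14.13 without them. For Krt4 it was 13.30 (SE 0.70), or 12.74 without that eye cup and 14.37 without untreated PRDM13-OE retina 1. Krt14 had at most 2 counts in any retina and was at least 5302-fold higher in eye cups, taking 3 counts per retina as the floor. On the same basis Krt17 was at least 1422-fold higher. For Krt16, a keratin of stressed epidermis, the bound was 276-fold, or 138-fold without untreated wildtype eye cup 1, whose 282 CPM lay far above the 2.24 to 122 CPM of the other eye cups.

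Corneal Krt12 had 42 to 88653 counts in eye cups (median 6769.5) and 1 to 8 counts in retinas (median 2.5). The tissues did not overlap, but its log2-fold change of 12.42 carried an SE of 1.21 and was 10.75 without untreated PRDM13-OE eye cup 1 and 12.59 without untreated PRDM13-OE retina 3. The lowest eye cup and the highest retina were 42 and 8 counts.

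Among simple epithelial keratins the pair Krt8 and Krt18 differed in the retina. Krt18 had 4736 to 22812 counts in eye cups (median 11561) and 861 to 2132 in retinas (median 1125.5), a log2-fold change of 3.35 (SE 0.21, adjusted p = 3.4e-11). Krt8 had 2182 to 10757 counts in eye cups (median 6515.5) and 13 to 56 in retinas (median 35), a log2-fold change of 7.51 (SE 0.30, adjusted p = 1.3e-13). For every 100 counts of Krt18 there were 37.0 to 127 counts of Krt8 in eye cups and 1.08 to 6.25 in retinas, so that the ratio did not overlap between tissues. Per length, the ratio of FPKM was 27.1 to 92.9 per 100 in eye cups and 0.789 to 4.59 per 100 in retinas. Krt19 and Krt7 were higher in eye cups by 10.27 (SE 0.49) and 10.14 (SE 0.71) on the log2 scale, Krt7 by 9.49 without untreated PRDM13-OE eye cup 1 and by 11.27 without untreated PRDM13-OE retina 1. Krt20, the intestinal member of the class, was not called, with a log2-fold change of 0.26.

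Krt222 was the one keratin with each retina above each eye cup. It had 37 to 166 counts in eye cups (median 89.5) and 224 to 352 in retinas (median 268.5) and was lower in eye cups by edgeR, the log2-fold change being -1.48 (SE 0.16, adjusted p = 4.7e-08). The hair follicle keratins Krt28 and Krt26 were also called lower. Krt28 had -1.69 on 4 to 13 counts per retina, or -2.92 without untreated PRDM13-OE eye cup 2, and Krt26, at most 3 counts per eye cup and 6 per retina, is given no fold change. Krt10 and Krt1 lay on the side of the eye cups, with log2-fold changes of 0.86 (SE 0.11) and 0.90 (SE 0.12) that did not reach the fold cutoff.

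By class, the eye cups were higher for 4 of 4 basal, 2 of 2 mucosal and 4 of 5 simple epithelial keratins and for Krt12. Of 5 epidermal keratins tested 3 were higher, and of 6 inner root sheath keratins tested 2 were higher and 2 lower, Krt27 and Krt26 on counts near the floor. The 13 hair shaft keratins in the table summed to 263 counts over the 12 eye cups and 17 over the retinas, too few for a statement on their difference beyond Krt32, at least 3.71-fold higher in eye cups. Desmosome, plakin and hemidesmosome genes, which anchor keratin filaments, were higher in eye cups for 19 of 21 tested, with a median log2-fold change of 6.71. Of 15 genes for other intermediate filaments, 7 were higher and 5 lower, with a median of 0.23. All 15 non-keratin genes of the surface epithelium were higher in eye cups.

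Reads of related genes can be assigned to the wrong keratin. Of all 50-base words in GENCODE transcripts of Krt12, Krt13 and Krt4, none occurred in a transcript of another gene on the same strand, but 45.6% of those of Krt12 occurred in antisense orientation. The share was 0.615% for Krt15, 0.656% for Krt18 and 8.47% for Krt5 (chiefly Krt6a), but 12.7% for Krt14 (Krt16 and Krt17), 36.0% for Krt16 and 25.1% for Krt8, whose words recur in the pseudogene Krt8-ps. Krt8-ps itself was listed with 3 to 13 counts in eye cups and at most 1 in retinas. Krt12 overlaps the antisense noncoding gene A830036E02Rik, and whether counting used strand is not stated. That gene had 4 to 175 counts in eye cups, 0.109 to 0.877 per 100 counts of Krt12 in 10 eye cups, and 6.32 and 61.9 per 100 in untreated PRDM13-OE eye cups 2 and 3, where Krt12 was lowest.

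Keratins varied widely between eye cups. The SD of log2 CPM over the 12 eye cups was 3.04 for Krt12. Of 14293 genes with 10 or more counts in each eye cup, 1 had a larger SD (Gm13394, named after its value was seen), and the median SD was 0.41. The SD was 1.52 for Krt5, 1.39 for Krt15, 1.59 for Krt13 and 1.64 for Krt4. It was 0.84 for Krt18 and 0.71 for Krt8, and the smallest values among the 18 keratins were 0.32 for Krt1 and 0.39 for Krt10.

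Krt12 did not keep a fixed ratio to the basal keratins. In CPM it had 149, 326 and 876 in untreated wildtype eye cups, 512, 514 and 1473 in wildtype eye cups with dox, 3299, 19.2 and 2.62 in untreated PRDM13-OE eye cups, and 4583, 215 and 118 in PRDM13-OE eye cups with dox. The lowest and highest eye cup of each PRDM13-OE group enclosed all 6 wildtype values. Krt12 counts per 100 counts of Krt5 ran from 0.550 to 35.4, a 64.3-fold range, and were 34.8 and 35.4 in eye cup 1 of the treated and the untreated PRDM13-OE group.

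**Figure D2:**
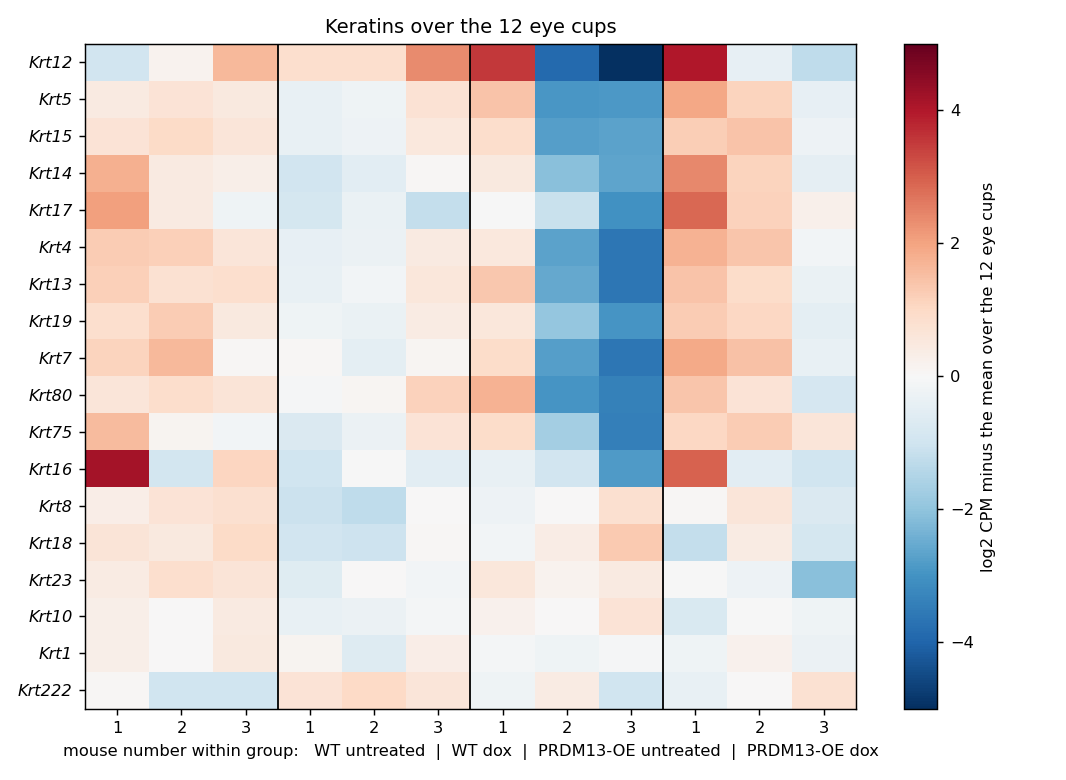
Log2 CPM minus the mean over the 12 eye cups (colour; red higher, blue lower) for 18 keratins (rows) in each eye cup (columns, by group and mouse number). The rows from Krt12 to Krt16 lay below their means in untreated PRDM13-OE eye cups 2 and 3, whereas Krt8 and Krt18 lay above theirs there.

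The keratins of surface epithelia were summed (Krt12, Krt5, Krt14, Krt15, Krt4, Krt13 and Krt19) and set beside sums of other genes over the 12 eye cups, as log2(CPM + 0.5), in 6 relations. The keratin sum was 1278 to 34883 CPM and that of 15 non-keratin genes of surface epithelium, with Aldh3a1 and Perp among its leading genes, was 376 to 16965 CPM. Pearson's r was 0.965 and Spearman's rho was 0.902 (permutation test, two-sided, adjusted p = 6.0e-05 and 0.00099). Both sums were lowest in untreated PRDM13-OE eye cups 2 and 3, and without them r was 0.885 and rho 0.842. Centred within the 4 groups, r was 0.982. The same keratin sum had r of -0.28 with 14 RPE genes and -0.15 with 14 rod genes (adjusted permutation p = 0.47 and 0.64).

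The sum of Krt8 and Krt18 was set beside the same lists. It was 403 to 1938 CPM, while the 14 RPE genes, led by Ttr, Rgr and Rlbp1, summed to 10876 to 62933 CPM. Pearson's r was 0.934 and rho was 0.881 (permutation test, two-sided, adjusted p = 6.0e-05 and 0.00099), with r of 0.951 without the 2 eye cups farthest from the median of the RPE sum and 0.964 centred within groups. Against the non-keratin surface epithelial genes r was -0.27 (adjusted permutation p = 0.47). Against the rod genes r was -0.68 and rho -0.76 (adjusted permutation p = 0.033 and 0.011), but centred within groups r was -0.54 (adjusted permutation p = 0.14). Other lists also rose with Krt8 plus Krt18 when all 13 non-keratin lists were set against both keratin sums, a step added after seeing the data (26 relations, two-sided permutation tests). For the 5 genes of the corneal stroma list (Kera, Lum, Dcn, Aldh1a1 and Ptgds) r was 0.920 and rho 0.902 (adjusted permutation p = 0.00058 and 0.0013). Without the 2 farthest eye cups r was 0.934, and centred within groups it was 0.868. These genes also summed to 106 to 447 CPM in retinas, and whether their RNA came from cornea was not tested. For melanocyte, Muller glia and fibroblast genes r was 0.855, 0.836 and 0.813 (adjusted permutation p = 0.0017, 0.0036 and 0.0036). For endothelial genes r was 0.685 (adjusted permutation p = 0.035). The relation with RPE genes was thus not particular to that list, although the Muller glia list shares Rlbp1 with it. The Muller glia genes summed to 8075 to 18881 CPM in eye cups and 5999 to 7182 CPM in retinas. Which cells their RNA came from in eye cups was not tested. The summed surface epithelial keratins rose with the desmosome, plakin and hemidesmosome genes, with r of 0.955 and rho of 0.937 (adjusted permutation p = 0.00017 and 0.0010), r of 0.924 without the 2 farthest eye cups and 0.977 centred within groups. With conjunctival and goblet cell genes r was 0.934 and rho 0.776 (adjusted permutation p = 0.0015 and 0.014), with r of 0.639 without the 2 farthest eye cups and 0.987 centred within groups. With the genes for other intermediate filaments r was -0.81 (adjusted permutation p = 0.013) but rho was -0.49 (adjusted permutation p = 0.25), and r was -0.19 without the 2 farthest eye cups, so that this relation rested on those 2. Sums taken from one library share its total count, and fewer cells of a type and less RNA per cell cannot be told apart in these bulk samples.

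**Figure D3:**
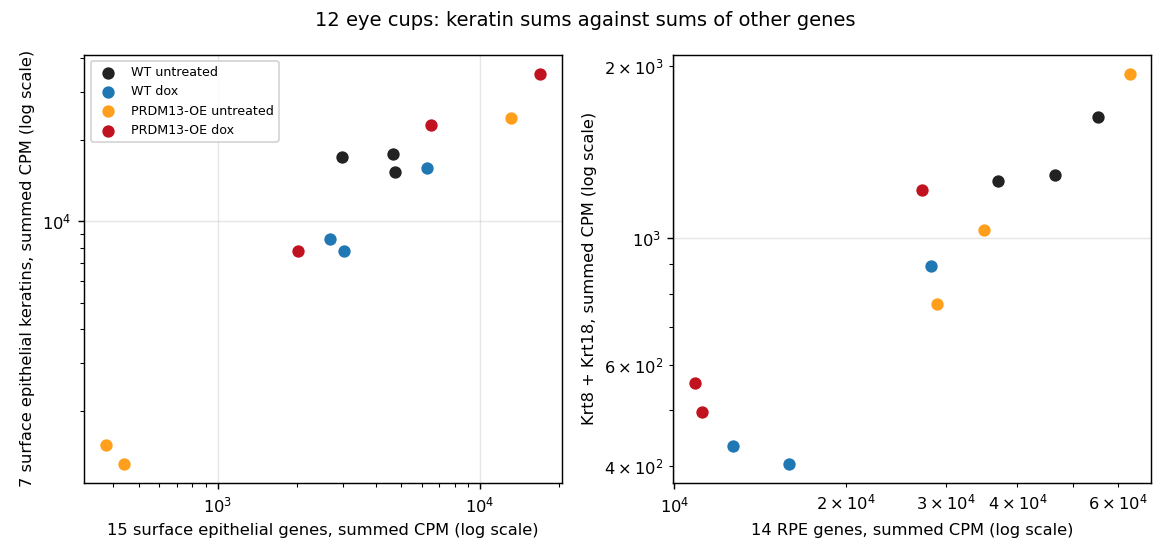
Summed CPM in each of 12 eye cups on log scales, coloured by group. Left, 7 surface epithelial keratins against 15 other surface epithelial genes, with untreated PRDM13-OE eye cups 2 and 3 at the lower left. Right, Krt8 plus Krt18 against 14 RPE genes, rising from 403 to 1938 CPM.

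The 4 comparisons within the eye cup asked whether genotype or dox was accompanied by a change in keratins. For PRDM13-OE against wildtype with dox, edgeR called 0 of 33 keratins, where 0.0184% of 21758 genes were called, 0.0046% higher and 0.0138% lower. Of the 33, 9 (27.3%) had an unadjusted p under 0.05, as did 8.24% of all genes. Leaving out wildtype eye cup 1, 2 or 3 left 3, 3 or 8 such keratins (9.68%, 9.38% and 25% of those tested). The shares of all genes were then 3.71%, 2.73% and 6.97%. Leaving out PRDM13-OE eye cup 1 or 2 left 5 or 4 (16.1% and 12.5%), beside 5.70% and 6.30% of all genes. Leaving out PRDM13-OE eye cup 3 gave 17 (51.5%), beside 28.6% of all genes. DESeq2 called 2, Krt17 and Krt90, both higher, with 0.285% of all genes called higher. Krt17 had 952, 295 and 154 CPM in PRDM13-OE and 71.4, 104 and 57.1 CPM in wildtype ones. These values did not overlap, and the log2-fold change was 2.70 (SE 0.67, adjusted p = 0.60 by edgeR and 0.010 by DESeq2). Leaving out PRDM13-OE eye cup 1 lowered it to 1.64, and the range over the 6 libraries was 1.64 to 3.09. Krt90 had 24.7, 16.6 and 11.5 CPM against 2.16, 3.38 and 4.78 CPM, a log2-fold change of 2.45 (SE 0.41, adjusted p = 0.55 by edgeR and 1.3e-05 by DESeq2). For 5 of 33 keratins (15.2%) all PRDM13-OE eye cups with dox lay above all wildtype ones, as did 5.24% of all genes, and for 0 they lay below, as did 11% of all genes. Besides Krt17 and Krt90 the 5 were Krt32, Krt42 and Krt36, of which Krt42 had 4, 12 and 5 against 2, 0 and 1 counts and Krt36 had 5, 8 and 3 against 0, 2 and 1 counts, so that they passed the filter through the higher group. Without PRDM13-OE eye cup 3, edgeR called 7 keratins higher (Krt4, Krt14, Krt19, Krt7, Krt17, Krt78 and Krt90), but 2.58% of all genes were then called higher. The median log2-fold change of the 15 non-keratin surface epithelial genes in this comparison was 0.87, against 0.05 over all genes, and its part in these values was not tested.

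Dox alone was compared in wildtype eye cups. By edgeR 0 of 30 keratins were called, with 0% of 21799 genes called, while 14 of the 30 (46.7%) had an unadjusted p under 0.05, as did 29.9% of all genes. DESeq2 called 7 lower (Krt4, Krt14, Krt18, Krt8, Krt7, Krt17 and Krt16) and 1 higher (Krt222), where it called 2.74% of all genes lower and 6.29% higher. All 3 wildtype eye cups with dox lay below all 3 untreated ones for 10 of 30 keratins (33.3%), where 13.4% of all genes did so, and above them for 2 (6.67%, where 23.8% of all genes did so). The 2 were Krt222 and Krt28. Krt28 had 4, 10 and 5 against 1, 0 and 0 counts, so that it passed the filter through the higher group. Krt18 had 290, 276 and 586 CPM with dox and 879, 802 and 1108 CPM untreated, a log2-fold change of -1.36 (SE 0.31, adjusted p = 0.067 by edgeR and 0.0010 by DESeq2). Krt8 had 142, 127 and 310 CPM against 382, 489 and 523 CPM, a log2-fold change of -1.35 (SE 0.34, adjusted p = 0.074 by edgeR and 0.0031 by DESeq2). Neither gene overlapped between the groups. The RPE genes moved with them, summing to 12693, 15916 and 28154 CPM with dox and 37048, 46499 and 55328 CPM untreated, with a median log2-fold change of -1.32 over 14 genes, of which 0 were called. Rod genes summed to 30590 to 55754 CPM with dox and 3476 to 29253 CPM untreated. The part of the RPE and rod levels in the keratin values was not tested. Basal Krt14 and mucosal Krt4 had log2-fold changes of -1.50 (SE 0.43, or -0.90 without untreated wildtype eye cup 1) and -1.17 (SE 0.29), while Krt12 was 0.79 (SE 0.67). Krt222 had 7.80, 9.50 and 7.34 CPM with dox and 5.03, 2.41 and 2.38 CPM untreated, a log2-fold change of 1.25 (SE 0.34, adjusted p = 0.078 by edgeR). Leaving out wildtype eye cup 3 with dox gave 6 keratins lower by edgeR (Krt15, Krt19, Krt13, Krt4, Krt18 and Krt8), with 2.69% of all genes lower. Leaving out untreated wildtype eye cup 1 gave 3 lower (Krt23, Krt18 and Krt8) and Krt222 higher, with 2.15% of all genes lower and 7.26% higher.

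**Figure D4:**
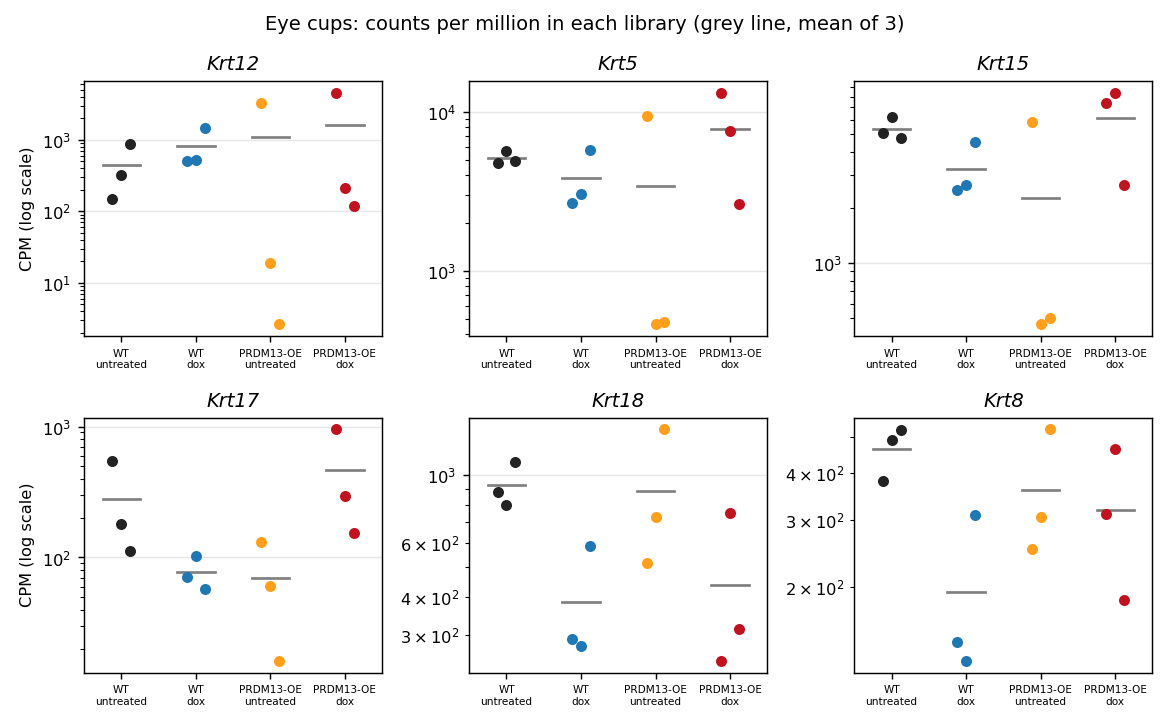
CPM (log scale) of 6 keratins in each eye cup by group, with the mean of 3 as a grey line. Krt18 and Krt8 were lower in each wildtype eye cup with dox than in each untreated one, and untreated PRDM13-OE eye cups 2 and 3 lay below all other eye cups for Krt12, Krt5 and Krt15.

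Untreated PRDM13-OE and wildtype eye cups differed by 2 libraries. Krt5 had 9327, 461 and 476 CPM in PRDM13-OE and 4742, 5657 and 4925 CPM in wildtype, and Krt15 had 5803, 464 and 500 CPM against 5113, 6204 and 4778 CPM. PRDM13-OE mouse 1 lay above the wildtype values for Krt5 and among them for Krt15, and mice 2 and 3 lay below all of them for both. The log2-fold changes were -0.65 (SE 1.10) for Krt5 and -1.32 (SE 0.96) for Krt15, and Krt4 had -1.94 (SE 1.00). Single libraries moved them widely, to -3.45, -3.49 and -4.15 without PRDM13-OE mouse 1 and to -0.07, -0.78 and -1.36 without mouse 3. Without mouse 2 Krt5 had -0.13 and Krt15 had -0.84. By edgeR 0 of 30 keratins and 0% of 21588 genes were called, and DESeq2 also called 0 keratins, while 2 by edgeR and 6 by DESeq2 had an unadjusted p under 0.05 (1.87% and 2.41% of all genes). All 3 PRDM13-OE eye cups lay below all 3 wildtype ones for Krt4 and Krt1 (2.82% of all genes did so) and above them for 0 keratins (3.16% of all genes). Without untreated PRDM13-OE mouse 1, 9 keratins were called lower by edgeR (Krt19, Krt14, Krt5, Krt15, Krt80, Krt13, Krt4, Krt7 and Krt78), with 1.38% of all genes called lower, and 15 had an unadjusted p under 0.05, beside 9.33% of all genes. Krt18 was not among them, with 514, 728 and 1415 CPM in PRDM13-OE and 879, 802 and 1108 CPM in wildtype. Non-keratin surface epithelial genes summed to 13135, 376 and 439 CPM in the same 3 PRDM13-OE eye cups and 2986 to 4730 CPM in wildtype. Mouse 2 gave the smallest eye cup library, and mouse 3 gave the one with the fewest genes with a count, 19726 against 21645 to 23710 in the other eye cups. The part of these library differences in the keratin values was not tested.

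PRDM13-OE eye cups with dox were also set against untreated ones. By edgeR 0 of 30 keratins were called, with 0.0139% of 21604 genes called, and DESeq2 also called 0, while 3 by edgeR and 5 by DESeq2 had an unadjusted p under 0.05 (4.14% and 5.16% of all genes). The 3 became 15 (50%) without untreated eye cup 1, beside 10.8% of all genes. They became 2 (6.67%) without untreated eye cup 2 or 3, beside 3.31% and 2.25% of all genes. Without eye cup 1, 2 or 3 with dox they were 1, 3 and 4 (3.45%, 10.3% and 13.3%). The shares of all genes were then 1.94%, 6.08% and 3.23%. The eye cups with dox lay above all untreated ones for 4 of 30 keratins (3.6% of all genes did so) and below them for 2, Krt23 and Krt10 (5.79% of all genes). The 4 were Krt17, Krt90, Krt32 and Krt42. Krt42 had 4, 12 and 5 against 0, 0 and 0 counts, so that it passed the filter through the higher group. Krt5 had 13172, 7557 and 2634 CPM with dox and the untreated values given above, a log2-fold change of 1.20 (SE 1.24). It became -0.23 without both untreated eye cups 2 and 3, 4.01 without untreated eye cup 1 and 0.66 without eye cup 1 with dox. Krt17 had 131, 60.9 and 16.2 CPM untreated, below each of its values with dox, and a log2-fold change of 2.75 (SE 0.88, adjusted p = 0.97), or 1.78 without PRDM13-OE eye cup 1 with dox. This comparison shares its treated libraries with the comparison by genotype under dox and its untreated libraries with the untreated comparison.

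For the interaction of genotype and dox over the 12 eye cups, edgeR called 0 of 36 keratins (0% of 23837 genes), with 8 (22.2%) at an unadjusted p under 0.05, as were 6.40% of all genes, and DESeq2 called 1, Krt17, with 0.042% of all genes called higher. The 8 became 18 (52.9%) without untreated PRDM13-OE eye cup 1, beside 12.9% of all genes. They became 4 to 5 without PRDM13-OE or wildtype eye cup 1 or 2 with dox, or without untreated PRDM13-OE eye cup 2. These were 11.1% to 13.9% of the keratins tested, beside 3.25% to 4.29% of all genes.

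In the neural retinas the keratins were sparse and only Krt18 and Krt222 held 100 or more counts in each library. Krt18 had 1197, 1122 and 1129 counts in PRDM13-OE retinas with dox, 1189, 1193 and 923 in wildtype retinas with dox, 896, 861 and 1048 in untreated PRDM13-OE retinas and 2132, 1010 and 1209 in untreated wildtype retinas. Untreated wildtype retina 1 stood above the other 11. Neither gene was called in any of the 4 comparisons or the interaction.

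One keratin was called in the retina. For PRDM13-OE against wildtype with dox, edgeR called 1 of 19 keratins lower and 0 higher, where 2.41% of 20560 genes were called and 1.5% were lower. Krt19 had 2, 4 and 6 counts in PRDM13-OE retinas with dox and 27, 37 and 5 in the wildtype ones. Its log2-fold change was -2.50 (SE 0.65, adjusted p = 0.027 by edgeR). Across the 19 keratins 0 were without overlap in either direction, where 15.6% of all genes lay above and 16.1% below. The groups overlapped for Krt19, since wildtype retina 3 lay among the PRDM13-OE retinas. Untreated retinas had 8, 5 and 4 counts in PRDM13-OE and 3, 5 and 3 in wildtype, so that wildtype retinas 1 and 2 with dox were the 2 high libraries of all 12. The same 2 libraries had the highest sums of 9 lens genes, 9979 and 4103 CPM, against 86.8 CPM in wildtype retina 3 with dox and 3.2 to 21.9 CPM in PRDM13-OE retinas with dox. Wildtype retina 2 with dox also had the most counts of Krt5 (39), Krt15 (69) and Krt13 (65). Of 8 lens genes tested, 8 were lower in PRDM13-OE retinas with dox, and of 10 non-keratin surface epithelial genes tested, 3 were lower and 0 higher. The part of lens or surface epithelial RNA in the Krt19 difference was not tested. The call was kept without wildtype retina 3 and lost without any one of the other 5 libraries, while the log2-fold change stayed between -2.95 and -2.03.

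Dox alone in wildtype retinas gave 0 of 22 keratins called by edgeR, where 0.00485% of 20631 genes were called, with 7 keratins (31.8%) at an unadjusted p under 0.05, as were 9.32% of all genes. The count fell to 1 of 15 keratins (6.67%) without wildtype retina 2 with dox, beside 6.90% of all genes. It fell to 1 of 20 (5%) without untreated wildtype retina 3, beside 9.31% of all genes. Without untreated wildtype retina 1 it was 4 of 21 (19.0%), beside 7.92% of all genes. In CPM each retina with dox lay above each untreated one for 2 keratins and below for 0 (6.87% and 7.58% of all genes did so). They were Krt19 and Krt42. For Krt19, wildtype retina 3 with dox and untreated wildtype retina 2 both had 5 counts, at 0.278 and 0.256 CPM. Krt42 had 2, 6 and 2 against 1, 1 and 1 counts, near the floor. DESeq2 called Krt19 higher, with 0.107% of all genes called higher. Krt19 had a log2-fold change of 2.76 (SE 0.67, adjusted p = 0.25) by edgeR and an adjusted p of 0.037 by DESeq2. In untreated retinas 0 of 20 keratins were called by genotype (0% of 20668 genes), with 0 at an unadjusted p under 0.05 by edgeR and by DESeq2 (3.76% and 2.36% of all genes). In these, Krt222 lay below wildtype without overlap, with 13.0, 12.7 and 13.3 against 13.6, 15.6 and 15.7 CPM, as did 4.7% of all genes. Krt42 lay above, as did 4.81% of all genes, but on at most 3 counts per retina. For PRDM13-OE retinas with dox against untreated, 0 of 20 were called (1.04% of 20603 genes, 0.417% higher and 0.621% lower), with 1 keratin by edgeR and 0 by DESeq2 at an unadjusted p under 0.05 (15.6% and 12.6% of all genes). By edgeR this became 5 of 15 keratins (33.3%) without untreated PRDM13-OE retina 1, beside 16.4% of all genes. Without any other library it was 0 or 1, beside 12.1% to 17.6% of all genes. Krt222 lay above and Krt10 below, without overlap, in that comparison, as did 10.2% and 10.3% of all genes. The interaction in the retina called 0 of 22 keratins by edgeR (0.87% of 22538 genes, 0.355% higher and 0.515% lower) and by DESeq2, with 2 and 1 at an unadjusted p under 0.05 (14.4% and 12.1% of all genes), and Krt19 had -3.36 (SE 0.96, adjusted p = 0.075).

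**Figure D5:**
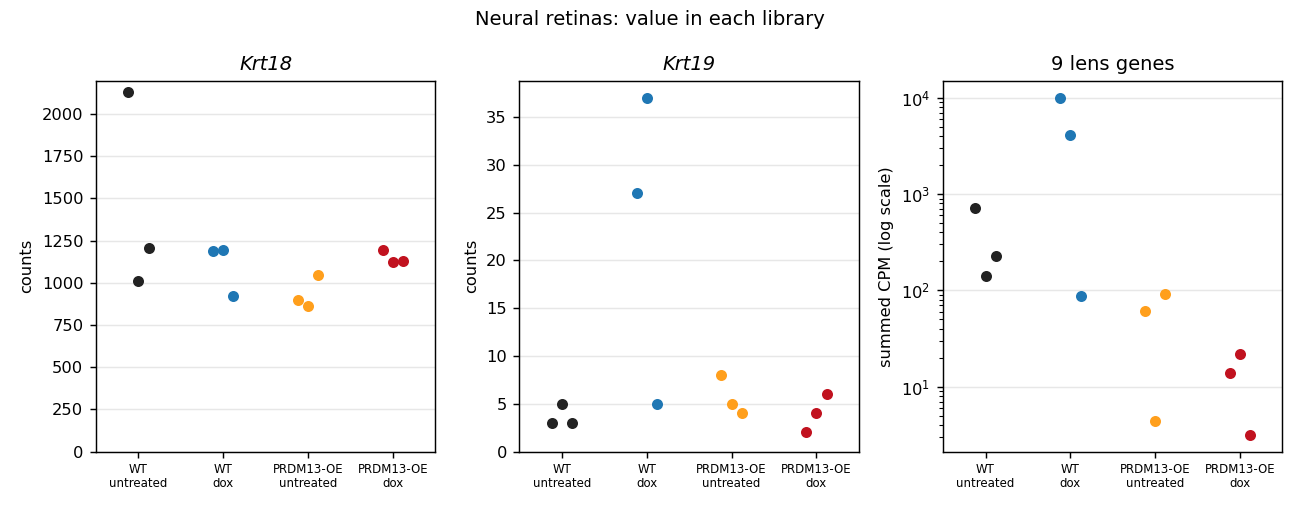
Counts of Krt18 and Krt19 and the summed CPM of 9 lens genes (log scale) in each neural retina, by group. Krt19 reached 27 and 37 counts in the wildtype retinas with dox that had the highest lens sums, and 2 to 8 counts in the other 10.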

How the data were processed

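RNA from neural retinas and eye cups of 12 mice was sequenced by Novogene on Illumina platforms for the authors and mapped to GRCm39. The submitters' processing notes name CASAVA and HISAT2. The counting tool and annotation release are not given in the sources used here, nor is the strand setting. The authors deposited raw read counts per gene, used for all tests, and FPKM, used for levels between genes. Their columns for 12 comparisons (group means, log2-fold changes, p-values) were not used.

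Testing kept genes that summed to 10 counts or more in a comparison and used the quasi-likelihood test of edgeR 4.0.16 (R 4.3.3), with TMM factors and Benjamini-Hochberg adjustment over all genes, each 2-group comparison on its own 6 libraries. Calls required an adjusted p-value below 0.05 together with a log2-fold change past 1. Genes at 3 counts or fewer in every library of a tissue were treated as undetected, and fold bounds use 3 counts per library, covering counting error only. Correlations used 100000 permutations and adjustment over 6 relations, in python 3.11.15 with numpy 2.4.6. DESeq2 1.42.0 and the other alternatives are given in the closing section, and the tests were tried on simulated data.

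The members and lists were chosen with earlier results of these data known. Genes named were the 10 keratins with the largest mean FPKM in eye cups, the 5 in retinas, every keratin called by edgeR (as counts and ranges outside the first 10), Krt7, Krt20 and other keratins of known tissue, and the 3 leading genes of other lists, of which 1 is not reported here. Krt90, Krt42, Krt23, Krt78, Krt80, Krt16, the genes of the corneal stroma list and the antisense and pseudogene neighbours were named after their values were seen. Libraries are separate mice. Retina and eye cup of one mouse carry the same number, and across groups same-numbered mice are different animals, so the tissue comparison alone is paired.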

Additional observations from a re-analysis of the deposited data

Results flagged for a closer look

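Krt17 was not called by edgeR in eye cups with dox against untreated in either genotype, but its values lay on opposite sides in the genotypes, each time without overlap between groups. PRDM13-OE eye cups had 952, 295 and 154 CPM with dox and 131, 60.9 and 16.2 CPM untreated, and wildtype eye cups had 71.4, 104 and 57.1 CPM with dox and 548, 181 and 112 CPM untreated. The log2-fold change of the interaction was 4.66 (SE 1.16, adjusted p = 0.75 by edgeR, 0.021 by DESeq2), so edgeR did not call the difference. It ranged from 3.66 to 5.61 on leaving out libraries. In PRDM13-OE alone the adjusted p was 0.97 by edgeR and 0.13 by DESeq2, and in wildtype alone it was 0.084 and 0.0049. The log2-fold change in PRDM13-OE ranged from 1.78 to 3.58 on leaving out libraries. Non-keratin surface epithelial genes in the same PRDM13-OE eye cups summed to 16965, 6528 and 2030 CPM with dox and to 13135, 376 and 439 CPM untreated. In the wildtype eye cups they summed to 3042, 2692 and 6270 CPM with dox and 2986, 4646 and 4730 CPM untreated, which overlapped, and their part in the Krt17 values was not tested. Among all genes, 3.6% lay higher without overlap in PRDM13-OE eye cups with dox than untreated, and 13.4% lay lower without overlap in wildtype ones.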

How the results depend on the processing

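Between eye cup and retina, 26 to 31 keratins were called on leaving out each library, 27 with the replicate block (each mouse as a block), and within 1.5 times of the 29 under all other alternatives. Krt20, not called, turned to -0.77 in untreated wildtype and -0.30 in untreated mice, and ranged from -0.56 to 0.65 on leaving out libraries.

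Within tissues, DESeq2 called 2 keratins for PRDM13-OE against wildtype eye cups with dox, 8 for dox in wildtype eye cups, 1 for the eye cup interaction and 1 for dox in wildtype retinas. Without a filter on counts, 5 were lower for dox in wildtype eye cups (1.24% of all genes were), 5 lower in retinas with dox by genotype (1.41%), 6 higher in wildtype retinas by dox (0.539%) and 2 lower for the retina interaction (1.01%). A robust fit called 1 lower for that interaction (0.501%). With filterByExpr 0 were called in retinas with dox, as Krt19 was not tested. Leaving out each library gave 0 to 7, 0 to 6 and 0 to 9 calls in eye cups for genotype with dox, dox in wildtype and genotype untreated, and 0 to 1 in retinas for genotype with dox, dox in wildtype and the interaction, the 1 of the last 2 appearing without wildtype retina 3 with dox. Without that retina 122 of 20247 genes were called higher by dox in wildtype and 190 of 22352 lower for the interaction. With all libraries these were 1 of 20631 and 116 of 22538. The cause was not tested. In no comparison did all 3 pairs of same-numbered mice correlate over 0.1 (mouse 1 did in PRDM13-OE and in wildtype eye cups by dox, at 0.353 and 0.138). The replicate block on their number changed no keratin call, but keratins with an unadjusted p under 0.05 went from 3 to 11 for dox in PRDM13-OE eye cups, from 2 to 7 for untreated genotype and from 9 to 4 for genotype with dox. Over all genes, those with such a p went from 894 to 787 of 21604, from 404 to 279 of 21588 and from 1792 to 829 of 21758.

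Without untreated PRDM13-OE eye cups 2 and 3 (chosen after seeing the data), the log2-fold changes turned to 0.87 for Krt5 and 0.11 for Krt15 against untreated wildtype, and to -0.23 for Krt5 with dox against untreated. Without the 2 farthest eye cups, r turned to 0.10 for surface keratins against rods and to 0.16 for Krt8 plus Krt18 against surface epithelium. Against rods, r of Krt8 plus Krt18 was -0.54 centred within groups and -0.74 to -0.61 on leaving out eye cups. Library size in place of TMM moved the median log2-fold change of all genes between tissues from -0.01 to -0.19. Means as CPM per kb differed from FPKM by less than 1 SD. In retinas most keratins had too few counts to be tested.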
